A study of Mus musculus with 6 samples.

Results

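Neutrophil secondary granule genes encode the proteins that maturing neutrophils pack into their specific granules, together with late-stage proteins made alongside them. The group was chosen by name and holds 10 genes (Ltf, Camp, Ngp, Lcn2, Mmp8, Cd177, Chil3, S100a8, S100a9 and Itgb2l). All 10 had at least 1 probe set annotated to that gene alone, 12 probe sets in total, among 18192 measured genes and 45037 probe sets. Each gene was read from the probe set with the highest mean over the 6 arrays.

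The arrays came from mouse C57BL/6J lineage-negative haematopoietic progenitors, that is progenitors left after cells with mature lineage markers were removed, from Rosa26rtTA animals, which carry a doxycycline-responsive transactivator. EGFP-positive cells carried pRRL.TET.EVI1.IRES.EGFP, a lentiviral vector from which doxycycline switches on EVI1 together with the green fluorescent marker EGFP (3 arrays). They were set against EGFP-negative cells (3 arrays), named untransduced in their labels but, in the series' design text, sorted as cells with little or no EGFP. All cells were cultured in S3F11 medium with interleukin-3 at 20 ng/ml and stem cell factor, the ligand of Flt3 and interleukin-11 at 50 ng/ml each, and by the design doxycycline (1 µg/ml) was given the day after transduction and cells were sorted 20 hours later. The labels give no age or sex, and whether the replicates of a group were separate cultures or mice is not stated, so p-values reflect no more than the spread among these samples, possibly a technical one.

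Granules of neutrophils are made in waves. Primary granules, with myeloperoxidase and serine proteases, are filled at the promyelocyte stage, and secondary (specific) granules, with lactoferrin, cathelicidin and neutrophil collagenase, at the later myelocyte and metamyelocyte stages, under transcription factors of the C/EBP family, PU.1 and GFI1. EVI1, the product of Mecom, is a zinc finger transcription factor that can bind GATA-like and ETS-like DNA sequences and is overexpressed in some myeloid leukaemias. The series asked how its forced expression alters gene expression in progenitors.

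Values are log2 signals made by RMA, and per gene differences are EGFP-positive minus EGFP-negative. The median signal was 5.11 to 5.14 on all 6 arrays. The bacterial control probe sets, which should find no target, read at most 3.61 on any array, and this value is used as a ceiling of background. The Mecom probe sets did not check the labels: the brightest read 7.97 ± 0.20 in EGFP-positive and 8.26 ± 0.09 in EGFP-negative arrays (SD, n = 3; limma, adjusted p = 0.17), the others lay under the ceiling, and the sources used here do not say whether they match the vector's EVI1. The progenitor receptor genes Kit (mean 6.60 in EGFP-positive and 7.58 in EGFP-negative arrays) and Flt3 (6.50 in EGFP-positive and 7.32 in EGFP-negative arrays) were above the ceiling. Both were lower in EGFP-positive cells (limma, adjusted p = 0.0021 for Kit and 0.014 for Flt3). The excess of 3' over 5' signal, a sign of RNA quality or amplification, was 1.00 ± 0.03 in EGFP-positive and 0.80 ± 0.05 in EGFP-negative arrays for Actb, and 1.06 ± 0.04 in EGFP-positive and 0.82 ± 0.02 in EGFP-negative arrays for Gapdh (log2, SD, n = 3). Its part in the results below was not tested. Each array measured a whole sorted fraction, so fewer cells of a type and less RNA per cell cannot be told apart.

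All 10 secondary granule genes were lower in EGFP-positive cells (limma, Benjamini-Hochberg adjusted p from 3.8e-05 for Camp and Mmp8 to 0.026 for S100a8), where 33.2% of all 18192 genes were called, 17.2% lower and 16% higher. The sizes ran from a 16.5-fold fall of Camp to a 1.23-fold fall of S100a8. The members fell into a run of graded falls from Camp to Cd177 and a cluster of small ones. Camp, Ltf and Ngp were lower at least 8-fold, which held for 0.385% of all genes, and Mmp8 joined them at 4-fold (1.62% of all genes). With Itgb2l and Cd177, 6 of the 10 were lower at least 2-fold (6.24% of all genes). Lcn2, S100a9, Chil3 and S100a8 fell less than 2-fold. The median difference of the 10 was -1.70, beside 0.02 for all genes.

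Promoter sequence is shown for Camp, Ltf and Ngp, the members with the largest falls, and for S100a8 and S100a9, neighbouring genes of 1 protein complex that fell less than 2-fold. Each stretch is the 250 bases before the annotated start, 5′ to 3′ on the gene's strand, from RefSeq on GRCm38.p6, and all 10 members were found in that table. The stretches lie at chr9:109849457-109849706 (minus strand) for Camp, chr9:111019042-111019291 (plus strand) for Ltf, chr9:110419558-110419807 (plus strand) for Ngp, chr3:90668821-90669070 (plus strand) for S100a8 and chr3:90695722-90695971 (minus strand) for S100a9. Capitals mark matches to a C/EBP-like motif (TTNCNNAA), an ETS-like motif (GAGGAA) or a GATA-like motif (AGATAA) on either strand, or to a TATA box (TATAAA) on the gene's strand.
Camp: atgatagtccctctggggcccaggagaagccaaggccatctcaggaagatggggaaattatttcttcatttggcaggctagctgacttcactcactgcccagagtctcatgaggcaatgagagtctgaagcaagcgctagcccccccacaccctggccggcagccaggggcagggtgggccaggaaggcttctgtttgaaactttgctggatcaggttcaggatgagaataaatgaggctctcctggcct
Ltf: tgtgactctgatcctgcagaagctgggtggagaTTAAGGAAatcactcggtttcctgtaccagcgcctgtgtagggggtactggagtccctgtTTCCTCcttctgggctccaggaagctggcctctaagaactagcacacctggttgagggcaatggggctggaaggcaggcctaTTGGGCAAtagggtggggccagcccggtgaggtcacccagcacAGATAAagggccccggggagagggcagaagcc
Ngp: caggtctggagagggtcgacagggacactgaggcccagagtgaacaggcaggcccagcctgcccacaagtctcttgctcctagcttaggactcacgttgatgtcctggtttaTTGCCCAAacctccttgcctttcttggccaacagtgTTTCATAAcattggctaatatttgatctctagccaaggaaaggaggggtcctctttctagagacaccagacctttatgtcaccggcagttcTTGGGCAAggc
S100a8: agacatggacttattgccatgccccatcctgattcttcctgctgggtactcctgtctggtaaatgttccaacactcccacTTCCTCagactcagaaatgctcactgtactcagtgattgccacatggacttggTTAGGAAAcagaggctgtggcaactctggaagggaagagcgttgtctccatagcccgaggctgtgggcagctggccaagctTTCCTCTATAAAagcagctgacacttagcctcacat
S100a9: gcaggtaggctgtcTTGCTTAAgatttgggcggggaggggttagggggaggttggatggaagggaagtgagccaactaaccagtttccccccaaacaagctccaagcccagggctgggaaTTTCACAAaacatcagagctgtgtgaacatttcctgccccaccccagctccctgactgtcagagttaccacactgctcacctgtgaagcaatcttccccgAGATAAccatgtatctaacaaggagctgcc
No matches of different motifs overlapped. The C/EBP-like letters occurred in 9 of the 10 members, all but Camp, and in 36.8% of the 32851 stretches of the table. The ETS-like letters occurred in 6 members (23.3% of the table), the GATA-like letters in Ltf, Chil3 and S100a9 (9.99%), and the TATA letters in Cd177 and S100a8 (7.59%). Camp, with the largest fall, held no match to any of the motifs in this window, and Ltf, close to it in size, held C/EBP-like, ETS-like and GATA-like letters. These are matches of letters, chosen after the expression values were known, and not binding sites.

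Camp, Ltf, Ngp and Lcn2 encode soluble granule proteins, and of the 10 members Camp, Ltf and Ngp had the largest falls. Camp encodes the precursor of the cathelicidin peptide, which disrupts bacterial membranes. Its signal was 5.18, 4.55 and 4.84 on the EGFP-positive arrays, against 8.90, 8.78 and 9.04 on the EGFP-negative arrays. The groups were separated by 3.59 between the nearest arrays, more than the range within either group. The difference was -4.05 (SE 0.17, 95% interval -4.47 to -3.62), which leaves 6.05% of the EGFP-negative signal. Only 47.7% of probe sets were dimmer than its EGFP-positive mean of 4.86, and the part of background in that signal was not tested.

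Ltf encodes lactoferrin, the iron-binding protein that marks specific granules. It read 6.53, 5.63 and 6.66 on the EGFP-positive arrays, against 9.85, 9.68 and 9.88 on the EGFP-negative arrays. EGFP-positive replicate 2 was clearly the lowest, and this gene had the widest spread of the members (SD 0.56 in EGFP-positive and 0.11 in EGFP-negative arrays), and the groups still lay 3.02 apart. The difference was -3.53 (SE 0.28; limma, adjusted p = 0.00026), an 11.6-fold fall. Without that array the difference was -3.21.

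Ngp encodes neutrophilic granule protein, a mouse granule protein related to cathelicidins. Its signal was 8.99, 9.38 and 8.73 on the EGFP-positive arrays, against 12.06, 12.03 and 12.26 on the EGFP-negative arrays. All EGFP-positive arrays kept a signal brighter than that of most probe sets (84.9% of them were dimmer than the group mean), so the 8.49-fold fall (-3.09, SE 0.18) left Ngp well above background. The 95% interval of Ltf (-4.20 to -2.86) overlapped that of Camp and that of Ngp (-3.51 to -2.66), its neighbours in the order of falls.

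Lcn2 encodes the lipocalin that binds bacterial siderophores. It read 11.09, 11.16 and 11.13 on the EGFP-positive arrays, against 11.65, 11.65 and 11.74 on the EGFP-negative arrays. The arrays of each group lay close together and the groups did not overlap, but the fall was only 1.47-fold (-0.55, SE 0.08; limma, adjusted p = 0.0025). Lcn2 thus kept 68.2% of its EGFP-negative signal (95% interval 59.9% to 77.5%), where Ltf kept 8.65% (5.44% to 13.7%) and Camp 6.05% (4.52% to 8.12%). Of the neighbours in the order of falls, the step from Cd177 to Lcn2 (0.98, combined SE 0.20) was the one whose 95% intervals did not overlap. Overlapping intervals do not show equal falls: Ngp to Mmp8 was 0.58 (combined SE 0.21) and Mmp8 to Itgb2l 0.64 (0.22). The steps were not tested.

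**Figure D1:**
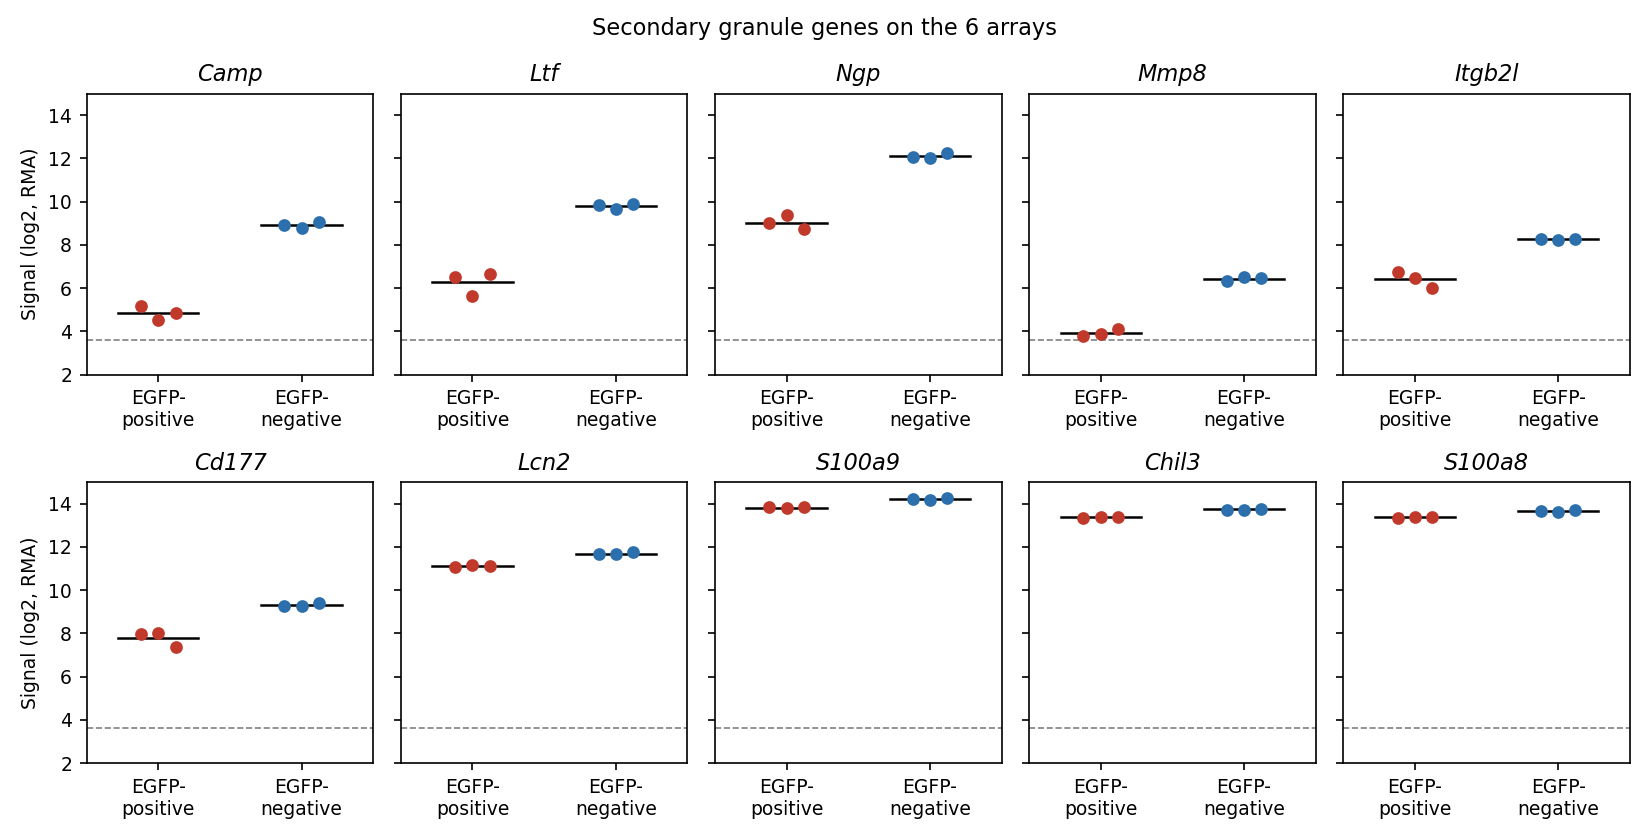
Log2 signal of the 10 secondary granule genes on each array, with EGFP-positive arrays (red, 3) left of EGFP-negative arrays (blue, 3), black bars at the group means and a dashed line at the background ceiling of 3.61. No EGFP-positive array reaches an EGFP-negative one in any panel, and the separation shrinks from 3.59 for Camp to 0.24 for S100a8.

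Mmp8 encodes neutrophil collagenase, the protease of this granule. It read 3.80, 3.88 and 4.11 on the EGFP-positive arrays, against 6.34, 6.49 and 6.46 on the EGFP-negative arrays. The EGFP-positive arrays sat just over the ceiling of 3.61, so this member came closest to background. The measured fall was 5.66-fold (-2.50, SE 0.11; limma, adjusted p = 3.8e-05).

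Cd177 encodes a lipid-anchored glycoprotein of the neutrophil surface and specific granules that can present proteinase 3. It read 7.972, 8.002 and 7.373 on the EGFP-positive arrays, against 9.261, 9.285 and 9.403 on the EGFP-negative arrays, a 2.90-fold fall (-1.53, SE 0.18; limma, adjusted p = 0.0013). The groups did not overlap, and EGFP-positive replicate 3 was the lowest array. Itgb2l encodes an integrin beta chain like that of the leukocyte integrins and expressed in mouse neutrophils.
Its lead probe set read 6.76, 6.47 and 6.00 on the EGFP-positive arrays, against 8.29, 8.22 and 8.29 on the EGFP-negative arrays, a 3.63-fold fall (-1.86, SE 0.19; limma, adjusted p = 0.00074). Itgb2l was the one member with several probe sets. The others had both group means under the ceiling (3.59 and 3.54, then 2.92 and 3.06, in EGFP-positive and EGFP-negative arrays), give no fold and were not called. The mean of its 3 probe sets differed by -0.65 and still passed (adjusted p = 0.0092).

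S100a9, Chil3 and S100a8 had the smallest falls of the 10 members. S100a8 and S100a9 encode calcium-binding proteins that pair as calprotectin in the cytosol of neutrophils and monocytes and signal through TLR4 and RAGE once released. S100a9 read 13.84, 13.78 and 13.85 on the EGFP-positive arrays, against 14.20, 14.19 and 14.25 on the EGFP-negative arrays. S100a8 read 13.32, 13.37 and 13.38 on the EGFP-positive arrays, against 13.64, 13.62 and 13.70 on the EGFP-negative arrays. Groups did not overlap for either gene, and the falls were 1.31-fold (-0.39, SE 0.075; limma, adjusted p = 0.0088) for S100a9 and 1.23-fold (-0.30, SE 0.075; limma, adjusted p = 0.026) for S100a8. The S100a8 call was lost on leaving out any single array except EGFP-positive replicate 3 (adjusted p 0.054 to 0.081), and in the fit over probe sets (adjusted p = 0.054), where 9 of the 12 member probe sets passed as lower, against 12.6% of all probe sets. The name of the S100a8 probe set ends in _s_at, which marks probe sets that can match several transcripts.

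Chil3 encodes a chitinase-like lectin without chitinase activity, made by neutrophils and macrophages. It read 13.35, 13.39 and 13.39 on the EGFP-positive arrays, against 13.72, 13.71 and 13.76 on the EGFP-negative arrays, a 1.28-fold fall (-0.35, SE 0.07; limma, adjusted p = 0.012). Chil3 and the S100 genes lay at the bright end of the arrays, where their EGFP-negative means exceeded those of at least 99.8% of probe sets. Of the 35 genes as bright as S100a8 or brighter in EGFP-negative arrays, these 3 included, 5 were called lower, 0 were lower at least 2-fold, the largest fall was -0.73 and the median difference was -0.02. Whether signals this bright can show a larger fall on these arrays was not tested.

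**Figure D2:**
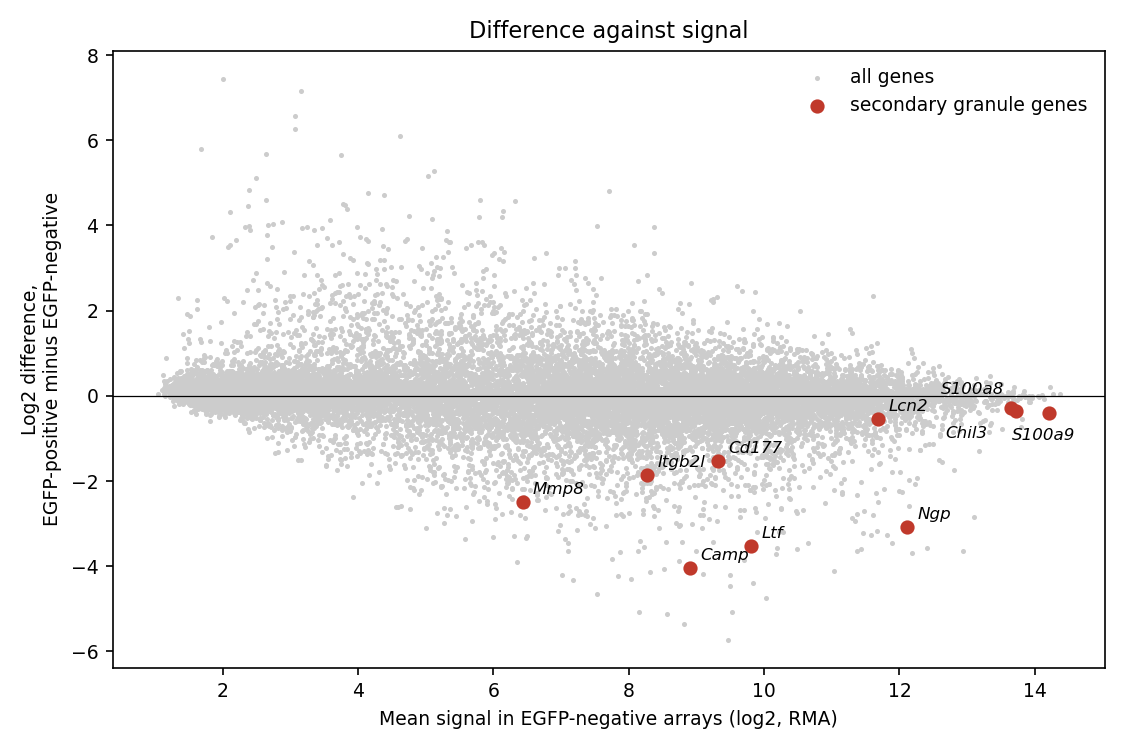
Log2 difference of each gene (EGFP-positive minus EGFP-negative) against its mean log2 signal in EGFP-negative arrays, for all 18192 genes (grey) and the 10 secondary granule genes (red, named). Chil3, S100a8 and S100a9 lie at the bright end, where all genes spread little, whereas Ngp, at 12.12, fell by 3.09.

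In every member each EGFP-positive array was below each EGFP-negative array, a separation that 24.4% of all genes showed in that direction. An exact permutation test over 3 against 3 arrays cannot go below p = 0.1, so it could not call any member. The spread differed between the groups for some members: the SD over EGFP-positive arrays was 0.32 to 0.56 for Camp, Ngp, Cd177, Itgb2l and Ltf, and 0.05 to 0.13 over EGFP-negative arrays for the same genes. For Mmp8 it was 0.157 in EGFP-positive and 0.082 in EGFP-negative arrays. For Lcn2, Chil3, S100a8 and S100a9 it was small in both groups, 0.022 to 0.035 in EGFP-positive and 0.026 to 0.053 in EGFP-negative arrays. No EGFP-positive array was the lowest throughout: replicate 1 was lowest for 4 members and replicates 2 and 3 for 3 each.

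**Figure D3:**
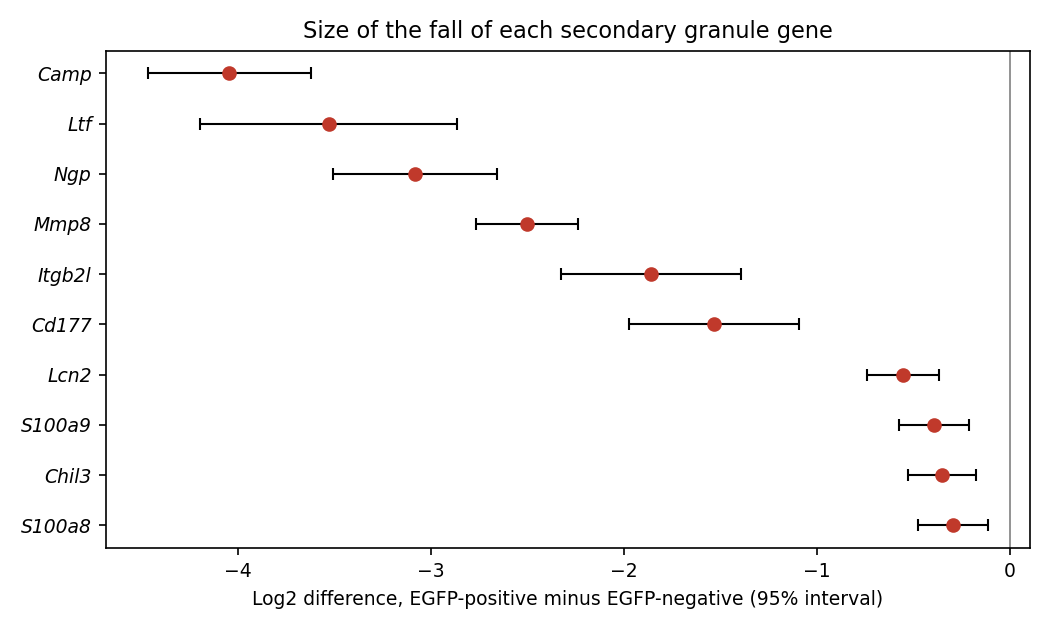
Log2 difference, EGFP-positive minus EGFP-negative, of each secondary granule gene (points) with its 95% interval from limma (bars; 3 arrays per group), ordered by size. The intervals of Cd177 (-1.98 to -1.09) and Lcn2 (-0.74 to -0.37) do not overlap, and those of all other neighbours do.

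The genes of the other granules were set beside the members. Of 9 measured primary granule genes 7 fell and 1 rose, with a median of -2.93, further down than the -1.70 of the secondary granule genes, a difference that was not tested. Mpo, myeloperoxidase, read 8.75, 8.34 and 8.39 on EGFP-positive arrays, against 12.18, 12.18 and 12.17 on EGFP-negative arrays, and cathepsin G (Ctsg) fell by 3.65. Lyz2, the lysozyme gene found in all granule types and in macrophages, rose by 0.40 (limma, adjusted p = 0.011).

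Of 12 other measured specific and gelatinase granule genes 7 fell and 3 rose, with a median of -0.59. The falls included Itgb2, the shared beta chain of leukocyte integrins and a relative of Itgb2l (-2.39, adjusted p = 3.7e-05), and Fpr2, a formyl peptide receptor that also binds the cathelicidin peptide (-1.90). The rises were Mmp9, Slc11a1 and Pglyrp1. Mmp9, which encodes a gelatinase, read 10.689, 10.843 and 10.608 on EGFP-positive arrays, against 5.004, 4.942 and 3.917 on EGFP-negative arrays, a difference of 6.09. Slc11a1, a metal transporter of phagosomes and, in human neutrophils, gelatinase granules, rose by 2.04, and Pglyrp1, a peptidoglycan recognition protein, by 1.08. Haptoglobin (Hp, 0.15) and the oxidase subunit gene Cyba (0.02) did not pass. Cybb, another oxidase subunit gene and counted among the falls (-0.405), lost its call with the mean of its probe sets (limma, adjusted p = 0.051). It was also lost with the most variable one (0.15).

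Relatives of the members moved in both directions. Chil1, another chitinase-like gene, read 10.41, 10.35 and 10.22 on EGFP-positive arrays, against 6.32, 5.97 and 6.10 on EGFP-negative arrays, 18.3-fold higher (limma, adjusted p = 1.5e-05). Chil4, the close relative next to Chil3 on chromosome 3, was 2.19-fold lower (-1.13, adjusted p = 0.011). Of 17 measured relatives 7 fell and 3 rose. Chid1, counted among the falls (-0.37; limma, adjusted p = 0.038), kept its call in 8 of 16 alternatives. Plaur, the urokinase receptor and a member of the Cd177 protein fold family, fell by 2.17, and Itgb3 rose by 0.73. Of 11 other measured S100 genes 1 fell, S100a10 (-0.46, adjusted p = 0.0051, or -0.72 with its most variable probe set), and 0 rose (limma; S100a4, at 0.23, passed as higher under both further scalings, with adjusted p of 0.044 and 0.049).

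**Figure D4:**
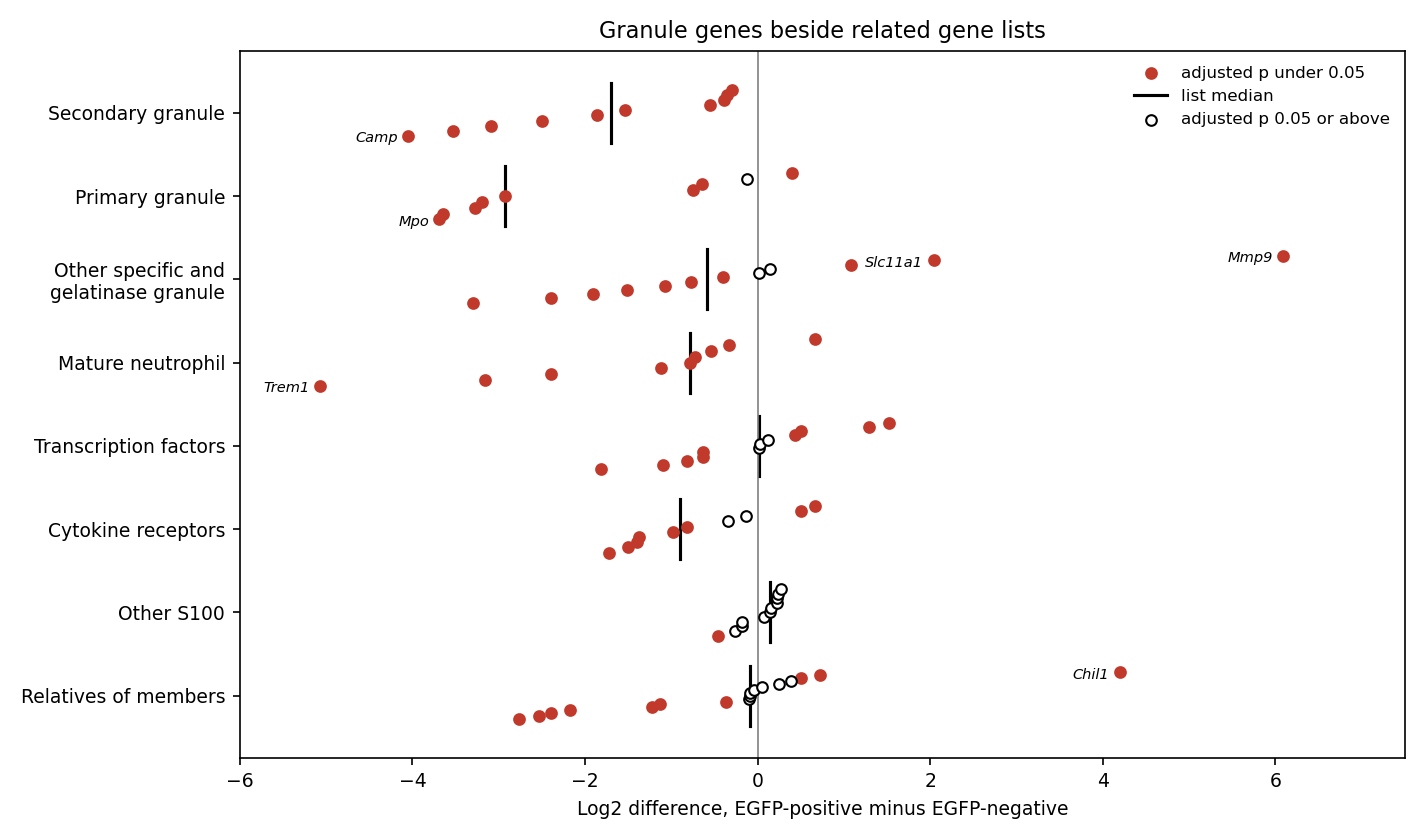
Log2 difference (EGFP-positive minus EGFP-negative) of each measured gene in the secondary granule group and 7 related lists, filled where the adjusted p was under 0.05 and open otherwise, with black bars at list medians. The secondary and primary granule medians (-1.70 and -2.93) lie left of 0, the transcription factors divide around 0.02, and Mmp9 (6.09) and Chil1 (4.196) stand far to the right.

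The transcription factors of the granule programme went both ways. Of 12 measured, 5 fell and 4 rose, with a median of 0.02. Cebpa, the first C/EBP factor of the granulocyte line, read 12.84, 12.77 and 12.73 on EGFP-positive arrays, against 12.78, 12.73 and 12.79 on EGFP-negative arrays, a difference of 0.02 (95% interval -0.17 to 0.20), and Cebpb (0.12, adjusted p = 0.38) did not pass. Cebpd rose by 1.29 and Klf5 by 1.52, and the PU.1 gene Spi1 (0.51) and Stat3 (0.43), which carries the G-CSF signal, rose less. Myb (-0.82), Runx1 (-0.63) and its partner Cbfb (-0.63) fell. The size depended on the probe set for Myb, which differed by -1.43 when all its probe sets were averaged and by -1.80 by the most variable one, and for Stat3, which differed by 0.82 with the most variable one, and both stayed past the threshold.
Gfi1, which acts in neutrophil maturation, read 8.25, 7.21 and 7.31 on EGFP-positive arrays, against 8.84, 8.50 and 8.72 on EGFP-negative arrays (-1.10; limma, adjusted p = 0.028). Its call was lost on leaving out any single array except EGFP-positive replicate 1 (adjusted p 0.058 to 0.09). Lef1 fell by 1.82 and was lost without EGFP-negative replicate 2 (adjusted p = 0.057) or 3 (0.064), which left the list with 3 falls in each case, and averaging its probe sets gave -0.90. The retinoic acid receptor gene Rara (0.03) did not pass, and Cebpe was not analysed here.

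Among 10 measured genes for receptors of cytokines that act on granulocytes or their progenitors 6 fell and 2 rose. The falls included Csf1r, Kit and Flt3, which are also counted below as monocyte, mast cell and dendritic cell markers. The shared beta chains for interleukin-3 and GM-CSF fell, Csf2rb with a difference of -1.502 and the mouse interleukin-3 specific Csf2rb2 with -1.73. The interleukin-3 alpha chain Il3ra rose by 0.51. Csf3r, the receptor for G-CSF, rose by 0.66 (limma, adjusted p = 0.020), a call that held only with all arrays or without EGFP-positive replicate 1 among the fits that left out 1 array (otherwise adjusted p 0.052 to 0.067). Of the 15 receptors, partners and inhibitors of the granule proteins 6 fell and 2 rose. The lists overlap: the falls of Prtn3, Itgam, Itgb2 and Fpr2 and the rise of Mmp9 were already counted among the granule genes above. The calprotectin receptor genes Tlr4 (0.03) and Ager (0.72, adjusted p = 0.23) did not pass, although Ager differed by 1.18 with an adjusted p of 0.0076 (limma) without EGFP-positive replicate 3. Of the metalloproteinase inhibitor genes, Timp2 rose by 1.46 and Timp1 fell by 1.32 (limma, adjusted p = 0.0076). Timp3 (-0.13) did not pass, but was called lower with the mean of its probe sets (-0.405; limma, adjusted p = 0.041).

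Markers of mature neutrophils and of other cell types also moved between the fractions, and their part in the falls of the granule genes was not tested. Of 9 measured mature neutrophil markers 8 fell and 1 rose, Csf3r, with a summed linear signal of 6355 to 6732 in EGFP-positive and 12369 to 12622 in EGFP-negative arrays. Among the falls, Clec4d (-0.331) kept its call in 11 of 16 alternatives and Mxd1 (-0.541) in 15 of 16. With the most variable probe set of each gene 6 fell. Fcgr3 fell by 3.16, and Trem1 was at least 22.3-fold lower, with 2 EGFP-positive arrays under the ceiling. For the members the same sum was 38528 to 39196 in EGFP-positive and 54385 to 57611 in EGFP-negative arrays. Such sums follow mostly the brightest genes of a set, for the members S100a9, Chil3 and S100a8.
Of 10 monocyte and macrophage markers 7 fell and 2 rose (5407 to 5506 in EGFP-positive and 6152 to 6415 in EGFP-negative arrays). The brightest of these, Cd68, rose by 0.80. Ms4a6c, counted among the falls (-0.38), kept its call in 8 of 16 alternatives. With its most variable probe set it differed by 0.03 (limma, adjusted p = 0.96). Of 10 mast cell and basophil markers 9 fell and 0 rose (4044 to 4364 in EGFP-positive and 16654 to 17158 in EGFP-negative arrays), and of 6 eosinophil markers 4 fell and 0 rose (215 to 353 in EGFP-positive and 1608 to 1820 in EGFP-negative arrays), with Ccr3 under the ceiling in both groups. The summed signals of these sets were lower in EGFP-positive arrays, as were those of the members.
Of 8 dendritic cell markers 4 fell and 1 rose (3027 to 3179 in EGFP-positive and 2473 to 2525 in EGFP-negative arrays), with Xcr1 under the ceiling in both. The marker that rose, Bst2, was the brightest of these (11.18 in EGFP-positive and 10.12 in EGFP-negative arrays) and makes up most of the sum. Of 8 B and T cell markers 3 fell and 1 rose (332 to 350 in EGFP-positive and 263 to 316 in EGFP-negative arrays), but Ms4a1, counted among the falls, was under the ceiling in both groups, as were Pax5 and Cd3g. Cd79b, the brightest of these, was the marker that rose (8.018 in EGFP-positive and 7.205 in EGFP-negative arrays). Of 8 erythroid markers 6 rose and 1 fell (11926 to 12473 in EGFP-positive and 8428 to 8774 in EGFP-negative arrays), and of 7 megakaryocyte markers 4 rose and 1 fell (3711 to 4145 in EGFP-positive and 1712 to 1835 in EGFP-negative arrays).

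On the chromosomes, Camp, Ngp, Ltf and Mmp8, the 4 members that fell most, all lie on chromosome 9, but none is the nearest measured neighbour of another. Camp, Ngp and Ltf lie in 1 region, with promoter stretches from bases 109849457, 110419558 and 111019042, and Mmp8 far from it, from base 7558179. S100a8 and S100a9 are direct neighbours on chromosome 3. Of the 18 measured protein-coding genes that flank the members, 6 fell, 0 rose and 12 did not pass, against 17.2% of all genes called lower. The genes on either side of Camp, Nme6 (-1.18) and the cell cycle phosphatase gene Cdc25a (-0.97), fell, less than Camp itself. Ceacam10, beside Cd177, fell by 1.40, close to the fall of Cd177 (-1.53). The remaining flanking genes that fell were Mmp10 beside Mmp8, Chil4 beside Chil3 and Klhl18 beside Ngp (-0.40), whose call was lost with the mean of its probe sets (-0.19, adjusted p = 0.18), under the replicate block (0.054) and without EGFP-negative replicate 1 (0.061) or 2 (0.053). Neither gene beside Ltf passed: Rtp3 was under the ceiling in both groups, and Ccrl2 differed by -0.33 (limma, adjusted p = 0.46), or by -0.69 with an adjusted p of 0.011 without EGFP-positive replicate 3.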

How the data were processed

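RNA from 6 sorted samples was hybridised to 1 Affymetrix-type array each. Per the labels' protocols it was amplified and biotin-labelled with a 3' kit. The deposited log2 values, 1 per probe set and array, came from RMA per the submitters' processing notes (version not given in the sources used here), a method of background correction, quantile normalization and probe summary. A change in total RNA per cell is therefore not visible. Scanner files were not used here. Arrays carry no read depth, and 3 per group limits the precision. Pairwise identical values were at most 300 probe sets, so no array was a copy.

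Of 45037 probe sets without controls, GEO's platform annotation gave 1 gene for 34943 used here, several for 932 and none for 9160. RefSeq names (GRCm38.p6) changed 0 symbols. The brightest probe set stood for each of 18192 genes. The ceiling is the highest of 27 bacterial control probe sets. Dim-group arrays under it were set to it, and such folds are lower bounds. No filter was applied.

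Groups came from the sample titles. limma 3.58.1 in R 4.3.3 (lmFit, eBayes, no covariate, two-sided) was fitted to all genes and to all probe sets, with Benjamini-Hochberg adjustment and a threshold of 0.05. The fit was also run on 5 simulated datasets with 200 changed genes and the same spread in both groups. In the real arrays far more genes were called and several members spread unequally, conditions that the simulation did not cover. Members and lists were chosen with earlier results of these data known. Named were all members, all factors of the transcription factor list, up to 2 rises and 2 falls per list by smallest p, and Csf3r, Chil4, Itgb2 and Mmp9. Other genes were named after their values were seen. Alternatives were the replicate block, further scalings, filters, eBayes options, array weights, other probe set choices and leaving out each array.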

Additional observations from a re-analysis of the deposited data

How the results depend on the processing

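Of the 159 alternative values of member differences, 151 kept their direction and their side of the threshold, 8 lost the call and 0 reversed. Many of these could not reverse. The replicate block, the filters and the eBayes options leave the difference as it was and change only its p-value. Other probe set choices do the same for the 9 members with 1 probe set. Without each array in turn, the members called lower numbered 9 to 10 of 10. With the replicate number as a block, 8 of 10 were called: Chil3 (-0.35, adjusted p = 0.054) and S100a8 (-0.30, 0.082) were not. Over all genes, the deviations of same-numbered arrays from their group means had correlations of -0.01 to 0.01. Whether same-numbered arrays shared a culture or mouse is not stated. Correlations over all genes, dim ones included, cannot decide it. S100a8 was also lost when each gene was read from its most variable probe set (limma, adjusted p = 0.075). It has 1 probe set, so its difference stayed at -0.295 and only the probe sets of other genes changed. With only the brighter genes tested, Mmp8 was not among them and 9 members were called.

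For the related lists, the other S100 genes called higher numbered 1 with a further quantile normalization, 1 with arrays shifted to the same median, 3 with only genes above the median gene, 2 with only genes above the ceiling and 3 with eBayes trend. The relatives called lower numbered 4 with only genes above the median gene, where 9 were tested. Leaving out 1 array gave 3 to 5 transcription factor falls, 1 to 2 cytokine receptor rises and 0 to 1 mature neutrophil rise. Other causes were not tested. Of the members, Mmp8 in EGFP-positive arrays (3.80 to 4.11) lay closest to the ceiling of 3.61, which limits how large a fall can be read.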

Other observations

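Among the EGFP-negative arrays, replicate 3 had the highest signal for 8 of the 10 secondary granule genes and the lowest for 0, where it was highest for 34.3% of all genes. The steps were small: Ngp read 12.26 there, against 12.06 and 12.03 in the other EGFP-negative arrays. For the 9 primary granule genes the same array was highest for 4. Members share these arrays and are not independent, and no test was made. Without that array 9 of 10 members were called lower.

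The primary granule gene Ctsc, which encodes the protease that activates granule serine proteases, did not pass by its brightest probe set (-0.12, adjusted p = 0.29) but fell by 0.97 with its most variable one (limma, adjusted p = 0.00072) and by 0.64 with the mean of its probe sets (0.0014).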
